A study of Mus musculus with 8 samples.

Results

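The H19-Igf2 and Kcnq1 imprinted cluster was followed across brown adipose tissue (BAT) RNA-Seq libraries through 10 genes. They were chosen by name: H19, Igf2, Igf2r, Ctcf, Cdkn1c, Kcnq1, Kcnq1ot1, Phlda2, Slc22a18 and Cd81, out of 49452 genes in the deposited table. The table gave a symbol for 8 of them, and H19 and Kcnq1ot1, whose symbol field is blank there, were found by their Ensembl identifiers through GENCODE. The creatine kinase gene Ckm, a marker of skeletal muscle fibres, was read beside every one of them. Values are FPKM, a fragment count scaled by transcript length and by the number of mapped fragments in a library.

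The study compared BAT of male C57BL/6 mice after cold exposure and after diet-induced obesity, with 2 libraries in each of 4 groups. Mice of 10 to 12 weeks were kept at 22 °C (replicates 4 and 7) or brought to 4 °C for 24 h, the last 4 h of it without food (replicates 2 and 11). The sources leave it unclear whether the 22 °C mice were fasted as well. Mice of 32 weeks had received a control diet (CD, replicates 6 and 8, named a normal chow diet in the labels) or a high-fat diet (HFD, replicates 2 and 6) for 28 weeks. No group carried a transgene or a deletion, and nothing says that the 2 libraries of a group shared a litter or a day. P-values measure the spread between these libraries only, and with 2 against 2 an exact two-sided permutation test of a single value cannot go below 0.3333.

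In imprinted clusters, the parental origin of a chromosome decides which copy of a gene is read. H19, a long non-coding RNA, is transcribed from the maternal copy, and its neighbour Igf2, a growth factor, from the paternal copy; the DNA-binding protein CTCF holds the enhancers away from maternal Igf2 at a control region between them. Further along the same chromosome, the non-coding RNA Kcnq1ot1 is read from the paternal copy through Kcnq1 and silences its neighbours there, among them the cell cycle inhibitor Cdkn1c, Phlda2 and Slc22a18. H19 is abundant in the fetus and falls in most tissues after birth, with skeletal muscle among the tissues that keep it. The parental copies cannot be told apart in these FPKM values.

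Of the 10 genes, 8 lie on chromosome 7 of GRCm38 (positions counted from base 1). H19 (ENSMUSG00000000031, lincRNA, minus strand) lies at chr7:142575529-142578143, and Igf2 (ENSMUSG00000048583) at chr7:142650766-142666816 starts 88.7 kb away. Kcnq1ot1 (ENSMUSG00000101609, minus strand) at chr7:143212155-143296549 runs antisense inside Kcnq1 (ENSMUSG00000009545, chr7:143106362-143427042, plus strand), and its start is 718.4 kb from that of H19. Cdkn1c (ENSMUSG00000037664) lies at chr7:143458339-143461050, Slc22a18 at chr7:143473736-143499334, Phlda2 at chr7:143501545-143503150 and Cd81 at chr7:143052739-143067934. Igf2r lies on chromosome 17 (12682406 to 12769664), and Ctcf lies apart from both clusters too.

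The sequences that carry the cluster's small RNAs are shown first, because H19 is the host of miR-675 and Igf2 the host of miR-483, and neither small RNA is read by this assay. Mature sequences are from RefSeq (GRCm38.p6), 5′ to 3′, with the seed (bases 2 to 8) in capitals. Both hairpins lie on the minus strand, that of miR-675 at chr7:142577064-142577147 inside H19 and that of miR-483 at chr7:142654924-142654996 inside Igf2. No seed is shared between the 4 arms.
mmu-miR-675-5p: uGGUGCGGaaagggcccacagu
mmu-miR-675-3p: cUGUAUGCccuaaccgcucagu
mmu-miR-483-5p: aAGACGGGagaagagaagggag
mmu-miR-483-3p: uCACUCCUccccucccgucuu

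The genes Mir675 and Mir483 are listed at 0 in all 8 libraries. This is a property of the table: of 2417 genes whose longest transcript has at most 100 bases, 0 are above 0 in any library. So the levels below are those of the long H19 and Igf2 transcripts, and the miRNAs were not measured.

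The primer pair with which the study read H19 by PCR shows which stretch of the transcript its own assay sampled. On the longest GENCODE transcript of 2286 bases the pair spans bases 1286 to 1371, a product of 86 bases, and both primers lie in 5 of 7 annotated H19 transcripts. For Cdkn1c the pair spans 188 bases and lies in 4 of 5 transcripts. Neither pair matches the transcripts of another gene.
H19 forward: tgtctcgaagagctcggactg
H19 reverse: ctgtcatcctcgccttcagtg
Cdkn1c forward: ccggtcgaggagcagaat
Cdkn1c reverse: ttcgacgccttgttctcct

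Among the members' start regions, that of Kcnq1ot1 is shown because it lies in the control element from which the domain is silenced. RefSeq windows of 250 bases before to 50 after a start were at hand for 7 of 10 members. The Kcnq1ot1 window, chr7:143296498-143296797 on the minus strand of GRCm38.p6, holds the CCAAT motif, searched on both strands, 3 times (in capitals). At least 1 match stands in 37.4% of all 32851 windows and 3 or more in 3.21%. The 4 Igf2 windows together hold 1 match, the Phlda2 window holds 1, and the windows of Igf2r, Ctcf, Slc22a18 and Cd81 hold 0. A match is a description of the letters and not of a bound site.
Kcnq1ot1 start: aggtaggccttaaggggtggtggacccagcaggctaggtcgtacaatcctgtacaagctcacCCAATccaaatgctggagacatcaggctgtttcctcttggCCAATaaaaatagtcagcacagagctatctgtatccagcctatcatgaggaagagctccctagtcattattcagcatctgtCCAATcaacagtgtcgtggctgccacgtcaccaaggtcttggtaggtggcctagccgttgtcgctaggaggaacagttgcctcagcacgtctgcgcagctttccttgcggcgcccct

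The libraries carried the RNA of brown fat: Ucp1, the uncoupling protein of brown adipocytes, ranged from 699.1 to 6462 FPKM and Cidea, a lipid droplet protein of brown adipocytes, from 411.5 to 1116 FPKM. All 11 skeletal muscle markers found in the table were present as well. Their summed level was 454.4 and 118.1 FPKM at 22 °C and 3422 and 1592 FPKM at 4 °C. It was 453.7 and 1245 FPKM on CD, and 166.0 and 36.8 FPKM on HFD. The lowest FPKM values were spaced by a fixed step, from which a depth of about 89700000 to 124000000 fragments per library was worked out. Both 22 °C libraries and CD replicate 6 list every X and Y gene at 0. In the cold comparison that listing falls on the 22 °C side alone, so any effect of it on FPKM cannot be told apart from that of temperature. The satellite repeat gene Gm10800 splits each group into a high library (447.4 to 15726 FPKM) and a low library (0.0998 to 4.13 FPKM). In bulk tissue, fewer cells of a type and less RNA per cell cannot be told apart.

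Among the members with no value at 0, H19 was the most variable, spanning 208.3-fold from the lowest to the highest library. In BAT at 22 °C it stood at 4.21 FPKM in replicate 4 and 0.956 FPKM in replicate 7. At 4 °C it stood at 32.4 FPKM in replicate 2 and 15.45 FPKM in replicate 11. Both cold libraries were above both 22 °C libraries, and the libraries of a group differed from each other by 4.40-fold at 22 °C and 2.098-fold at 4 °C. On the log2(FPKM + 1) scale the difference was 2.88 (SE 0.56), with an adjusted p of 0.0632 over 17470 genes, which did not pass the threshold of 0.05.

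In the diet comparison H19 was at 3.13 FPKM in CD replicate 6 and 11.5 FPKM in CD replicate 8. It was at 1.16 FPKM in HFD replicate 2 and 0.156 FPKM in HFD replicate 6, the last value resting on about 30.1 fragments. Both HFD libraries were below both CD libraries. The log2 difference was -2.19 (SE 0.54) with an adjusted p of 0.169 over 17535 genes, so this difference did not pass the test either. By group means the order was 4 °C (23.9 ± 11.998 FPKM, SD, n = 2), CD (7.32 ± 5.92), 22 °C (2.58 ± 2.30) and HFD (0.657 ± 0.710). The neighbours CD and 22 °C overlapped in that order, as did 22 °C and HFD, whereas 4 °C and CD did not.

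The call for H19 turned on single libraries. In the cold, the adjusted p was 2.9e-05 without 22 °C replicate 4 and 0.00118 without 22 °C replicate 7, with log2 differences of 3.58 and 2.17, whereas it was 0.184 without 4 °C replicate 2 and 0.0723 without 4 °C replicate 11. Under HFD it was 8.93e-12 without CD replicate 6, 0.000132 without CD replicate 8, 0.000157 without HFD replicate 2 and 0.181 without HFD replicate 6. In these fits the lone library of a group was assumed to vary like the group with 2 libraries. The label of CD replicate 6 starts with another character string than those of the other 3 libraries of the diet comparison, a difference the sources do not explain; without that library the log2 difference was -2.99. With the Gm10800 library type as a covariate the adjusted p was 0.0383 in the cold and 0.00413 under HFD. The library higher in Gm10800 was also the one with more Ckm at 22 °C, on CD and on HFD, but not at 4 °C. Library type and muscle content therefore cannot be told apart within those groups.

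**Figure D1:**
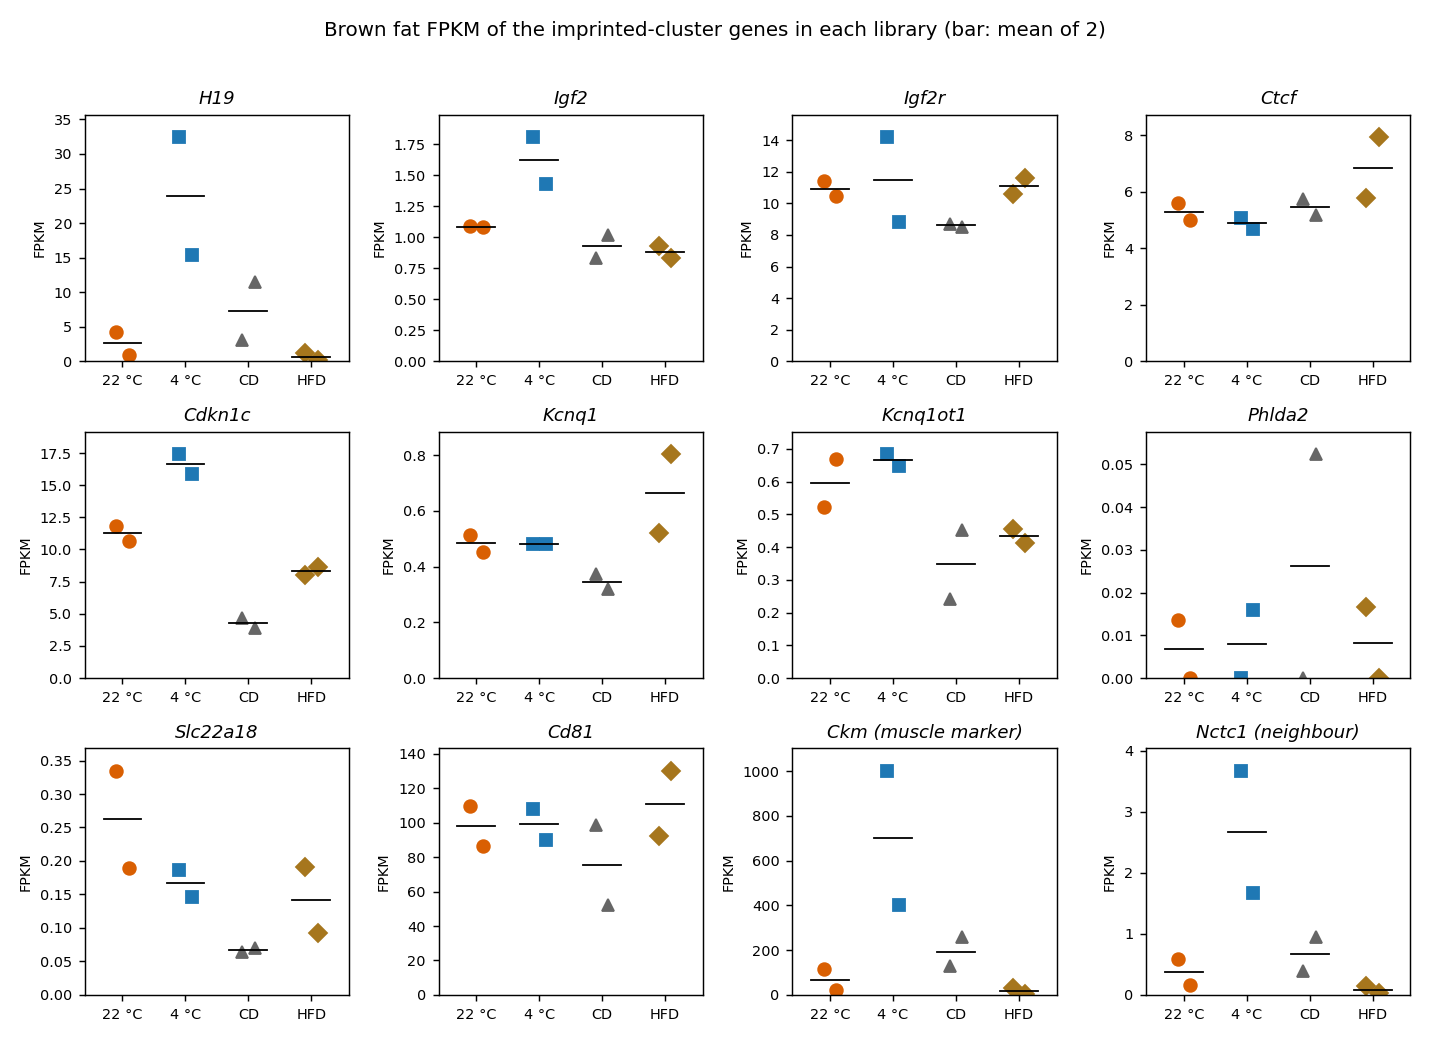
FPKM (linear axis from 0) of the 10 members, of the muscle marker Ckm and of the neighbour Nctc1 in each of the 8 BAT libraries, with a bar at the mean of the 2 libraries of a group. H19, Ckm and Nctc1 share 1 pattern with 4 °C replicate 2 on top and HFD replicate 6 lowest, whereas Cdkn1c is lowest on CD.

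H19 moved with skeletal muscle content. Ckm was at 115.2 and 21.7 FPKM at 22 °C, at 1002 and 403.8 FPKM at 4 °C, at 129.6 and 257.1 FPKM on CD, and at 31.4 and 3.58 FPKM on HFD, a span of 279.9-fold. In every one of the 4 groups the library with more Ckm had more H19. Among the 22 °C libraries, replicate 4 exceeded replicate 7 in H19 by 4.40-fold and in Ckm by 5.31-fold. At 4 °C replicate 2 exceeded replicate 11 by 2.098-fold and 2.48-fold, on CD replicate 8 exceeded replicate 6 by 3.67-fold and 1.98-fold, and on HFD replicate 2 exceeded replicate 6 by 7.45-fold and 8.77-fold.

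The level of H19 per 1000 FPKM of Ckm was nearly level across the study. Ratios of 36.6 and 44.1 were found at 22 °C, of 32.3 and 38.3 at 4 °C, of 24.2 and 44.8 on CD, and of 36.9 and 43.5 on HFD. They spanned 1.85-fold over all 8 libraries, and the groups overlapped in both comparisons. Without a pseudocount, H19 differed by 3.48 (pooled SD 1.20) and Ckm by 3.67 on the log2 scale between 4 °C and 22 °C, and the H19 to Ckm ratio by -0.19 (pooled SD 0.18). Between HFD and CD, H19 differed by -3.82 (pooled SD 1.73), Ckm by -4.11 and the ratio by 0.28 (pooled SD 0.46).

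Set against Ckm, the group difference in H19 was not detectable. In a limma fit of all 8 libraries with log2 Ckm as a covariate, H19 differed by 0.91 (SE 0.65, adjusted p = 0.587) between 4 °C and 22 °C and by -0.06 (SE 0.69, adjusted p = 0.993) between HFD and CD. These values moved with the settings: in the cold the difference was 0.31 with a pseudocount of 0.1 and 0.12 without either HFD library, and under HFD it ran from -0.90 without CD replicate 6 to 1.40 without HFD replicate 2, with adjusted p-values from 0.423 upwards over the 12 alternatives in each comparison. The slope of H19 on Ckm was 0.54 (SE 0.14, unadjusted p = 0.00675, adjusted p = 0.901). That fit called 0 of 18894 genes in either comparison (0.0%), with an unadjusted p under 0.05 in 11.2% of them in the cold and 8.24% under HFD. With the mean of the 11 muscle markers as the covariate in place of Ckm, the H19 differences were 0.80 and -0.09. Whether the muscle RNA accounts for the differences in H19, or whether H19 also differed within brown adipocytes, was not tested, since the libraries hold all cells of the dissected tissue.

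Over the 8 libraries, H19 and Ckm correlated on the log2(FPKM + 1) scale with a Pearson r of 0.966 (exact permutation p = 0.000248) and a Spearman rho of 0.976 (exact permutation p = 0.000397). It was the only relation tested, and it was known from earlier results of these data, so the p-values are no independent support. The permutation also treated the 8 libraries as exchangeable across the 4 groups. Without the 2 libraries farthest from the median of Ckm, 4 °C replicate 2 and HFD replicate 6, r was 0.967 (exact permutation p = 0.0111, n = 6). Leaving out each library in turn gave values of r from 0.954 to 0.981. The libraries share the group differences in both genes, so this describes joint movement across conditions as well as within them.

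**Figure D2:**
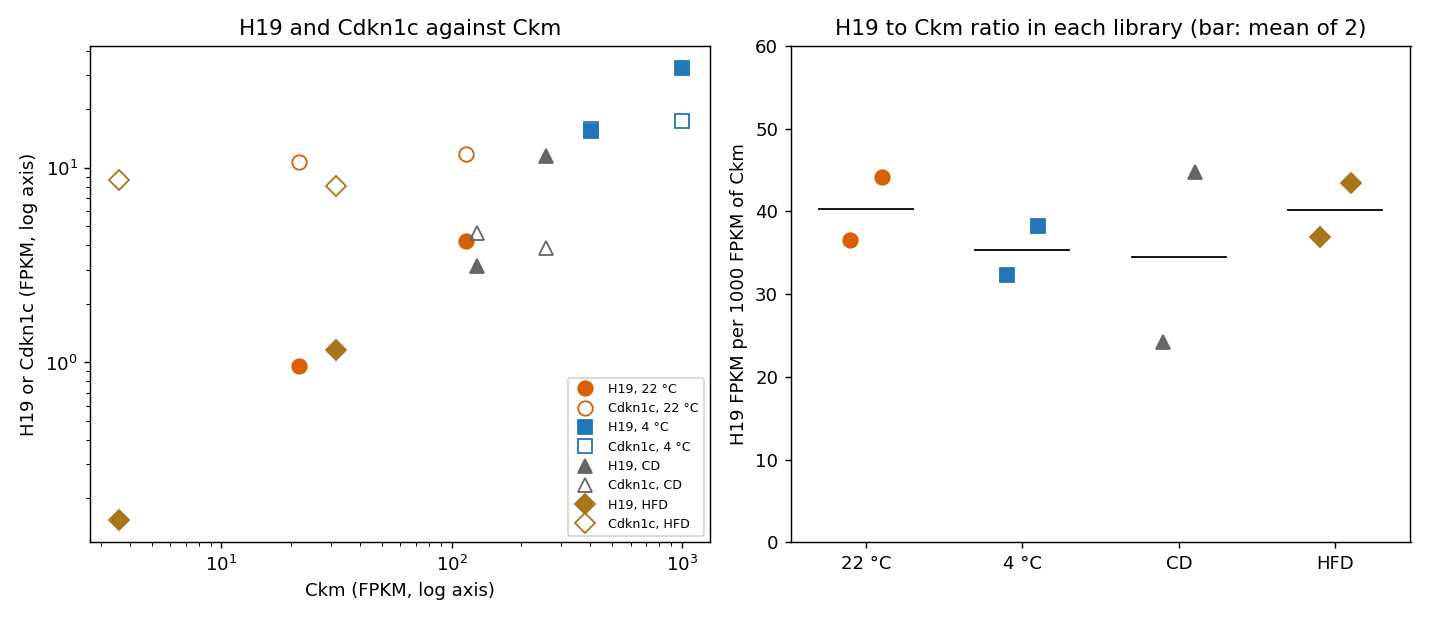
Left, FPKM of H19 (filled) and Cdkn1c (open) against Ckm in the 8 libraries, both axes logarithmic; right, H19 per 1000 FPKM of Ckm in each library with a bar at the mean of 2. H19 rises along Ckm over the whole range, Cdkn1c does not, and the ratio lies between 24.2 and 44.8 in all 4 groups.

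No other member followed Ckm in this way. Per 1000 FPKM of Ckm, the other members with no value at 0 spanned from 128.6-fold (Igf2) to 468.3-fold (Kcnq1), because their own levels varied by 1.66-fold to 5.18-fold while Ckm varied by 279.9-fold. Igf2 and Slc22a18 were higher with more Ckm in 4 of 4 groups, but for Igf2 by only 1.003-fold to 1.26-fold. The fitted slope on Ckm was 0.04 (SE 0.06) for Igf2 and 0.05 (SE 0.02, adjusted p = 0.901) for Slc22a18.

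By likeness of log2(FPKM + 1) over the 8 libraries, the 5 genes nearest to H19 among 10877 autosomal genes averaging 1 FPKM or more were Cacna1s, the calcium channel of the muscle T-tubule (r = 0.998), Eef1a2, the translation elongation factor of muscle and neurons (0.998), Mlf1 (0.995), the fast myosin light chain Myl1 (0.995) and the sarcoplasmic calcium store protein Casq1 (0.994). The levels of Cacna1s were 2.23 and 0.439 FPKM at 22 °C, 16.6 and 7.66 FPKM at 4 °C, 2.03 and 6.39 FPKM on CD, and 0.622 and 0.0525 FPKM on HFD, the order of libraries seen for H19. This likeness is a description over 8 libraries, with no test.

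Igf2, the growth factor on the other side of the control region, stayed near 1 FPKM in adult BAT. It was at 1.09 and 1.09 FPKM at 22 °C, 1.81 and 1.44 FPKM at 4 °C, 0.833 and 1.02 FPKM on CD, and 0.929 and 0.831 FPKM on HFD. The cold libraries were above the 22 °C libraries with a log2 difference of 0.33 (SE 0.15, adjusted p = 0.249), and the diet groups overlapped (-0.03, SE 0.17, adjusted p = 0.947). The cold difference of Igf2 depended on scaling, at 0.068 with median centring, 0.090 with rescaling to the autosomal sum without Ucp1 and rRNA genes, and 0.53 with a pseudocount of 0.1. The quotient of H19 and Igf2 FPKM therefore ranged from 0.187 in HFD replicate 6 to 17.9 in 4 °C replicate 2. Igf2os, which runs antisense to Igf2, reached at most 0.0542 FPKM.

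Igf2r, the receptor that takes IGF2 into lysosomes, was 6.14 to 14.0 times the Igf2 level in FPKM in every library. It was at 11.4 and 10.4 FPKM at 22 °C, 14.2 and 8.81 FPKM at 4 °C, 8.68 and 8.52 FPKM on CD, and 10.6 and 11.6 FPKM on HFD. The cold groups overlapped (log2 difference 0.03, SE 0.26, adjusted p = 0.954). Both HFD libraries were above both CD libraries, and the difference of 0.33 (SE 0.33, adjusted p = 0.695) did not pass the test.

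Ctcf, the insulator protein that separates the domains of H19 and Igf2, spanned 1.69-fold from the lowest to the highest library. It was at 5.59 and 4.998 FPKM at 22 °C, 5.09 and 4.69 FPKM at 4 °C, 5.73 and 5.18 FPKM on CD, and 5.77 and 7.93 FPKM on HFD. The log2 difference was -0.10 (SE 0.18, adjusted p = 0.782) in the cold, with overlapping groups, and 0.27 (SE 0.32, adjusted p = 0.748) under HFD, where the groups did not overlap.

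Cdkn1c, the p57 cyclin-dependent kinase inhibitor, separated all 4 groups. It was at 11.8 and 10.7 FPKM at 22 °C and at 17.4 and 15.9 FPKM at 4 °C. It was at 4.64 and 3.87 FPKM on CD and at 8.05 and 8.66 FPKM on HFD. The group means were 16.7 ± 1.08 FPKM at 4 °C, 11.2 ± 0.790 at 22 °C, 8.36 ± 0.430 on HFD and 4.26 ± 0.546 on CD (SD, n = 2 each), and no group overlapped its neighbour in this order.

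The Cdkn1c differences did not pass the test across all genes. In the cold the log2 difference was 0.53 (SE 0.19, unadjusted p = 0.0348, adjusted p = 0.173). Under HFD it was 0.83 (SE 0.31, unadjusted p = 0.0295, adjusted p = 0.289). With Ckm as a covariate the differences were 0.53 and 0.83, and the slope on Ckm was -1.71e-05 (SE 0.08), so the muscle marker left the Cdkn1c values where they were. With the Gm10800 library type as a covariate, the adjusted p of Cdkn1c under HFD was 0.0189, at a log2 difference still under the 1 that a call needed, and it was 0.171 in the cold. Scaling mattered more: with libraries centred on their medians the differences were 0.27 and 0.48, and after quantile normalization 0.15 and 0.50, with the same direction as before.

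Markers of mural and stromal cells were read beside Cdkn1c, and limma called 0 of them in either comparison. It called 1.44% of all genes in the cold and 0.0684% under HFD. At an unadjusted p under 0.05 stood 5 of the 5 smooth muscle and pericyte markers and 1 of the 8 stromal markers in the cold, where 24.5% of all genes did, and 3 and 4 of them under HFD, where 14.4% did. For the 5 smooth muscle and pericyte markers, the mean log2(FPKM + 1) of the 22 °C libraries was 3.25 and 3.10, against 3.97 and 3.799 at 4 °C, 2.67 and 2.78 on CD, and 3.54 and 3.38 on HFD. Of these markers, 4 did not overlap with the cold group higher (37.9% of all genes) and 1, the pericyte marker Rgs5, with it lower (20.6%), and 3 did not overlap with HFD higher (39.9%). The 8 stromal and preadipocyte markers had a median log2 difference of -0.02 in the cold, where 1 (Pdgfrb) did not overlap with the cold group higher and 1 (Col3a1, log2 difference -1.13) with it lower, and of 0.71 under HFD, where 6 did not overlap with HFD higher. The part of these cells in the Cdkn1c values was not tested.

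A second gene lies inside Cdkn1c on the opposite strand. Gm44732 was at 7.45 and 7.07 FPKM at 22 °C, 12.9 and 11.2 FPKM at 4 °C, 2.49 and 1.81 FPKM on CD, and 4.91 and 6.32 FPKM on HFD, and it was the second most similar of the 10877 genes to Cdkn1c (r = 0.995). Libraries were directional, but whether strand was used when FPKM were estimated is not given in the sources used here, so reads of the pair may have been shared. The most similar gene was the semaphorin Sema4c (r = 0.996), followed after Gm44732 by Flt3l (0.981), Ccn1 (0.975) and Skiv2l (0.975). Sema4c was at 2.16 and 2.01 FPKM at 22 °C, 3.30 and 2.98 FPKM at 4 °C, 0.974 and 0.846 FPKM on CD, and 1.62 and 1.77 FPKM on HFD.

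Kcnq1ot1, the silencing RNA of the second domain, was detected in every library at 0.243 to 0.685 FPKM. It was at 0.522 and 0.670 FPKM at 22 °C, 0.685 and 0.648 FPKM at 4 °C, 0.243 and 0.453 FPKM on CD, and 0.455 and 0.413 FPKM on HFD. The groups overlapped in both comparisons, with log2 differences of 0.06 (SE 0.10, adjusted p = 0.738) and 0.09 (SE 0.12, adjusted p = 0.759). Both diet groups, which were the older mice, lay below both temperature groups. These groups differ in age as well as in diet and temperature, and the contrast was not tested.

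Kcnq1, the potassium channel gene that Kcnq1ot1 crosses, was as low as its antisense RNA. It was at 0.514 and 0.454 FPKM at 22 °C, 0.480 and 0.482 FPKM at 4 °C, 0.373 and 0.318 FPKM on CD, and 0.522 and 0.804 FPKM on HFD. The cold groups overlapped (log2 difference -0.0020, SE 0.08, adjusted p = 0.992). The HFD libraries were above the CD libraries by 0.30 (SE 0.13, adjusted p = 0.359), which did not pass the test. Here too reads of overlapping opposite strands may have been shared.

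Slc22a18, a transporter of the organic cation family, was low throughout, at about 9.22 to 58.0 fragments a library. It was at 0.335 and 0.189 FPKM at 22 °C, 0.187 and 0.146 FPKM at 4 °C, 0.0646 and 0.0697 FPKM on CD, and 0.191 and 0.0927 FPKM on HFD. The cold libraries were below the 22 °C libraries by a narrow gap (log2 difference -0.11, SE 0.08, adjusted p = 0.417). Under HFD the gene reached 0.1 FPKM in only 1 library and was not tested, with both HFD libraries above both CD libraries. With Ckm as a covariate the differences were -0.29 (SE 0.09, adjusted p = 0.356) and 0.29 (SE 0.09, adjusted p = 0.505).

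Phlda2, a growth-restraining gene known from the placenta, was close to the floor. It is listed at 0 in 4 of 8 libraries and reached 0.0525 FPKM in CD replicate 8, a value of about 3.004 fragments. It passed the filter in neither comparison. A difference in Phlda2 was not detectable at this depth.

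Cd81, a tetraspanin of the cell surface whose gene lies between Igf2 and Kcnq1, was the most abundant member. It was at 109.6 and 86.6 FPKM at 22 °C, 108.2 and 90.3 FPKM at 4 °C, 98.9 and 52.1 FPKM on CD, and 92.1 and 130.2 FPKM on HFD. The groups overlapped in both comparisons, with log2 differences of 0.02 (SE 0.26, adjusted p = 0.971) and 0.60 (SE 0.54, adjusted p = 0.659).

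**Figure D3:**
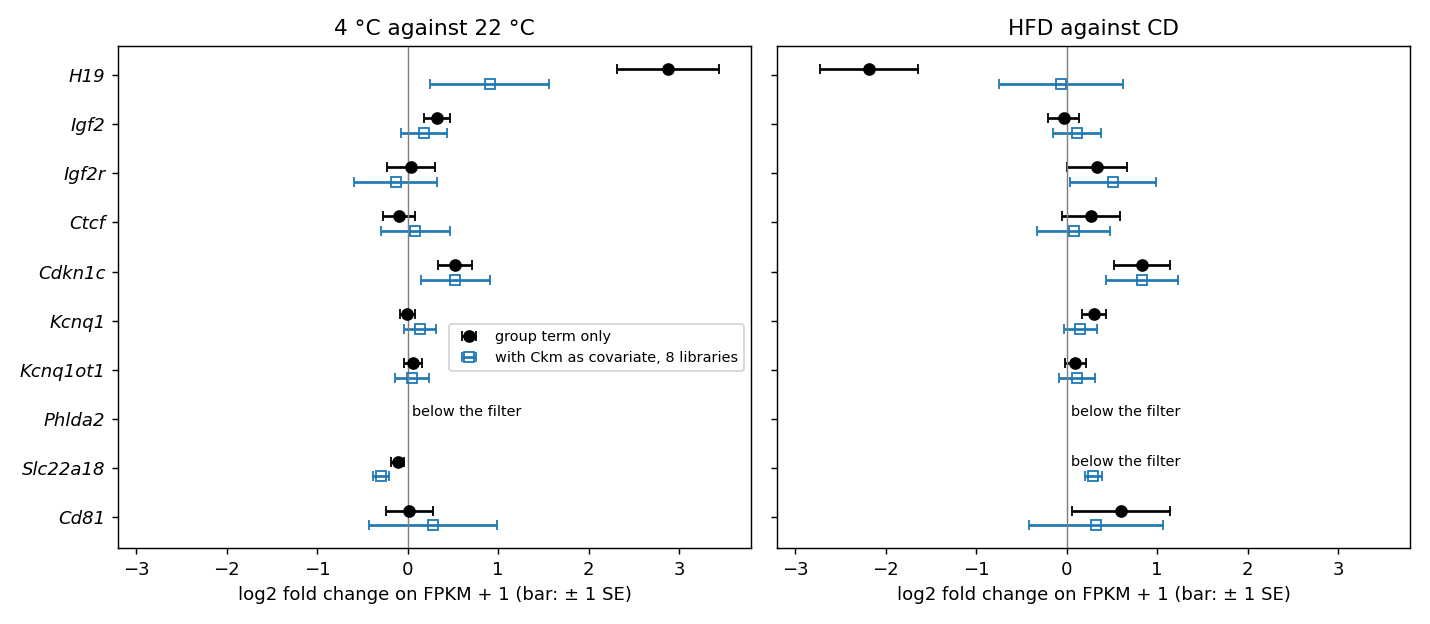
Log2 difference on FPKM + 1 with its limma SE for each member at 4 °C against 22 °C (left) and HFD against CD (right), without (filled) and with (open) Ckm as a covariate. H19 moves from 2.88 to 0.91 and from -2.19 to -0.06 with the covariate, and Cdkn1c keeps 0.53 and 0.83.

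Over the members, limma called 0 of 9 tested in the cold, where it called 1.44% of all genes, and 0 of 8 tested under HFD, where it called 0.0684%. At an unadjusted p under 0.05 there were 2 members in each comparison, H19 and Cdkn1c, where 24.5% and 14.4% of all genes were. In the cold, 3 members (H19, Igf2 and Cdkn1c) did not overlap with the cold group higher, against 37.9% of all genes, and 1 (Slc22a18) with it lower, against 20.6%. Under HFD, 4 of the tested members (Igf2r, Ctcf, Cdkn1c and Kcnq1) did not overlap with the HFD group higher, against 39.9% of all genes tested, and 1 (H19) with it lower, against 5.8%. The members' median log2 difference was 0.03 in the cold, where that of all genes tested was 0.07, and 0.29 under HFD, where that of all genes was 0.18.

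Around H19, the genes on the side away from Igf2 included muscle genes with the H19 pattern. Tnnt3 and Tnni2, subunits of fast skeletal muscle troponin, and the non-coding RNA Nctc1, which lies next to H19, were all higher in both cold libraries and lower in both HFD libraries. Nctc1 (chr7:142544609-142558596), whose start is 19.5 kb from that of H19, was at 0.580 and 0.162 FPKM at 22 °C, 3.67 and 1.67 FPKM at 4 °C, 0.393 and 0.950 FPKM on CD, and 0.148 and 0.0225 FPKM on HFD. Per 1000 FPKM of Ckm, Nctc1 spanned 2.47-fold, Tnnt3 1.39-fold and Tnni2 1.29-fold over the 8 libraries.

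None of these neighbours passed the test in the design reported here, although several did under alternatives. The log2 difference of Nctc1 was 1.38 (SE 0.31, adjusted p = 0.0791) in the cold and -0.61 (SE 0.16, adjusted p = 0.187) under HFD. That of Tnnt3 was 3.53 (SE 0.84, adjusted p = 0.0874) and -3.93 (SE 1.01, adjusted p = 0.170). That of Tnni2 was 3.64 (SE 0.84, adjusted p = 0.0836) and -3.85 (SE 0.93, adjusted p = 0.169). By contrast Mrpl23, a mitochondrial ribosomal protein gene between Nctc1 and Tnnt3, differed by 0.24 (SE 0.20, adjusted p = 0.503) and 0.21 (SE 0.46, adjusted p = 0.872). In the same design, all 7 tested genes of the list of H19-Igf2 neighbours fell short of the threshold in the cold, and so did all 6 under HFD. Of all genes tested, 1.44% were called in the cold and 0.0684% under HFD. In the cold, median centring brought the adjusted p of Nctc1, Tnnt3 and Tnni2 to 0.0454, 0.0491 and 0.0447, and rescaling to the autosomal sum brought them to 0.0119, 1.79e-05 and 2.80e-06. Library type as a covariate also gave a call for Tnni2 (0.0477), and the fit of all 8 libraries gave one for Nctc1 (0.0435). Without 22 °C replicate 4 or 22 °C replicate 7, all 3 of these genes passed in the cold (adjusted p from 2.01e-05 to 0.0195). Under HFD, Tnnt3 and Tnni2 passed with library type as a covariate (0.00512 and 0.00554), and without CD replicate 6, CD replicate 8 or HFD replicate 2 (5.50e-11 to 3.02e-05).

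In the Kcnq1 domain, 0 of 9 tested neighbours were called in the cold and 0 of 10 under HFD. The share of all genes called was 1.44% in the cold and 0.0684% under HFD. The transfer RNA ligase gene Cars had the widest cold difference, from 2.64 and 3.09 FPKM at 22 °C to 9.96 and 6.71 FPKM at 4 °C (log2 difference 1.25, SE 0.24, adjusted p = 0.0618). The histone chaperone gene Nap1l4 differed by 0.85 (SE 0.22, adjusted p = 0.1001) and Tssc4 by 0.73 (SE 0.20, adjusted p = 0.114). Under HFD the same 3 genes differed by 0.43, 0.16 and 0.26, with adjusted p-values of 0.616, 0.911 and 0.816.

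**Figure D4:**
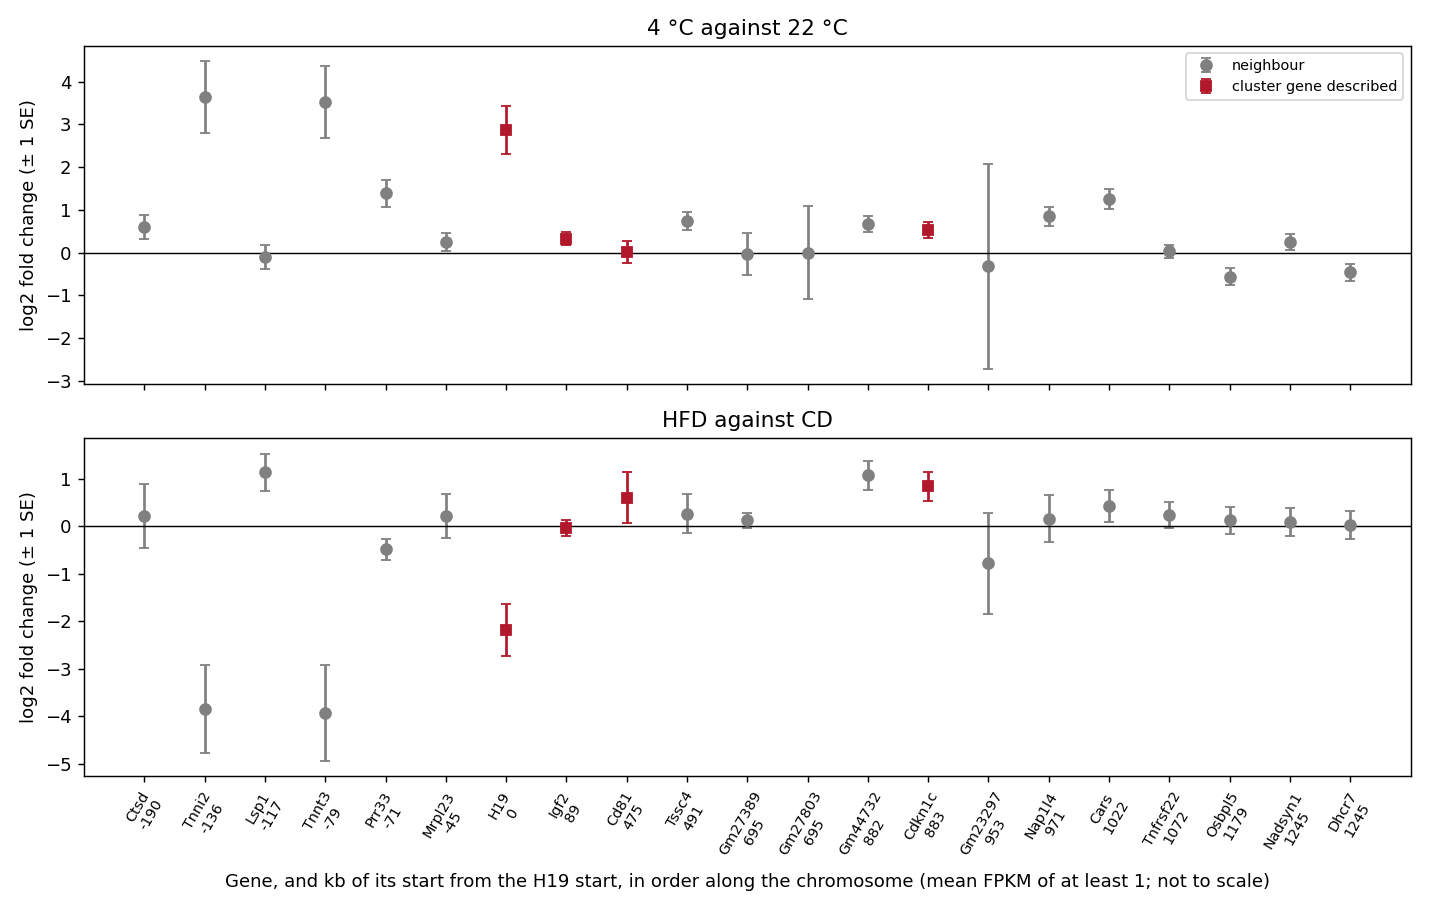
Log2 difference on FPKM + 1 (± 1 SE) of the 21 genes averaging 1 FPKM or more between Ctsd and Dhcr7, in order of their starts, whose distance from the H19 start in kb stands under each name. H19, Tnnt3, Tnni2 and Prr33 lie above 1 in the cold and below 0 under HFD, whereas Igf2, Cd81 and Cdkn1c do not share that pattern. Prr33 overlaps Tnnt3 on the opposite strand, so reads of the pair may have been shared. In addition, 1 short gene, Gm27803, has no HFD value because it fell below the filter.

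At the Igf2r locus on chromosome 17, the imprinted neighbours had lower values in the cold. Airn, the antisense RNA that silences paternal Igf2r, was at 3.93 and 3.01 FPKM at 22 °C, 1.11 and 1.37 FPKM at 4 °C, 2.22 and 2.23 FPKM on CD, and 2.58 and 2.41 FPKM on HFD. The cold libraries were below both 22 °C libraries, with a log2 difference of -0.99 (SE 0.19, adjusted p = 0.0626). Airn overlaps Igf2r on the opposite strand, so reads of the pair may have been shared. Slc22a3, an organic cation transporter of the same cluster, was at 4.73 and 6.72 FPKM at 22 °C and 1.86 and 0.999 FPKM at 4 °C (-1.48, SE 0.26, adjusted p = 0.0586). Under HFD they differed by 0.12 (adjusted p = 0.874) and 0.14 (adjusted p = 0.884). In either comparison 0 of 3 tested genes of that cluster were called, where limma called 1.44% of all genes in the cold and 0.0684% under HFD. In the cold, 3 of 3 did not overlap with the cold group lower, against 20.6% of all genes.

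Among the 13 tested IGF ligands, receptors and binding proteins, 1 rose in the cold, where 1.44% of all genes were called. Igfbp3, the main carrier of IGFs in blood, was at 3.32 and 4.42 FPKM at 22 °C and 33.2 and 27.5 FPKM at 4 °C, a log2 difference of 2.69 (SE 0.22, adjusted p = 0.0206), and at 2.25 and 3.49 FPKM on CD and 3.32 and 6.15 FPKM on HFD (0.54, SE 0.36, adjusted p = 0.548). The adjusted p of Igfbp3 in the cold was over the threshold with no filter on low values (0.130), with no intensity trend (0.0601) and without 4 °C replicate 2 (0.108). Under HFD, 0 of 12 were called, against 0.0684% of all genes. Igf1, chosen after its values were seen as the ligand beside Igf2, was at 1.14 and 1.11 FPKM on CD and 5.47 and 3.69 FPKM on HFD (1.38, SE 0.29, adjusted p = 0.151).

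Of the 6 cell cycle genes listed beside Cdkn1c, 1 rose in the cold, where 1.44% of all genes were called. Cdkn1a, the p21 inhibitor of the same family, was at 7.62 and 4.77 FPKM at 22 °C and 124.2 and 72.9 FPKM at 4 °C, a log2 difference of 3.77 (SE 0.35, adjusted p = 0.0218). That call was lost with no filter on low values (adjusted p = 0.155), with no intensity trend (0.0742) and without 4 °C replicate 2 (0.108). Cdkn1a was at 9.42 and 9.59 FPKM on CD and 7.89 and 42.7 FPKM on HFD, where the groups overlapped. The log2 difference of Cdkn1b, the p27 inhibitor, was 0.23 (SE 0.21, adjusted p = 0.553) in the cold.

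Genes that read or keep the imprint, with the cohesin subunits that work with CTCF, gave 0 calls of 24 tested in the cold and 0 of 25 under HFD. Over all genes, limma called 1.44% in the cold and 0.0684% under HFD. In the cold the widest differences among those averaging 1 FPKM or more were those of the methyl-CpG binding gene Mbd1 (1.28, SE 0.24, adjusted p = 0.0618), the cohesin subunit Rad21 (0.52, adjusted p = 0.340) and the cohesin release factor Wapl (0.48, adjusted p = 0.234). Under HFD they were those of the maintenance methyltransferase Dnmt1 (0.80, adjusted p = 0.228), Trim28 (0.79, adjusted p = 0.366) and the de novo methyltransferase Dnmt3a (0.79, adjusted p = 0.277). In that comparison 15 of 25 did not overlap with HFD higher, where 39.9% of all genes did not. All 5 macrophage markers, with a summed level of 106.3 and 37.99 FPKM on CD and 184.9 and 237.1 FPKM on HFD, did not overlap with HFD higher, and neither did 6 of 8 stromal, 3 of 6 endothelial and 3 of 5 smooth muscle markers. The part of these cells in the values was not tested.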

How the data were processed

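BAT RNA-Seq libraries of 8 mice were analysed in 4 groups taken from the sample labels. The authors depleted ribosomal RNA, made directional paired-end libraries, mapped them to GRCm38 with TopHat2 2.0.10 and estimated expression with Cufflinks on Ensembl genes; the submitters' processing notes name Cufflinks 2.2.1. The deposited values are FPKM, made by the authors per library without pooling. Depth is not stated and was inferred from single-exon genes of 600 to 3000 bases, where 99.1% to 99.7% of values under 0.1 FPKM were whole multiples of 1 fragment within 0.1; 3 fragments on 2000 bases correspond to 0.0131 to 0.0182 FPKM (counting error only).

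Genes were matched to GENCODE M21 (49109 of 49452). After adding 1 and taking log2, FPKM were tested in R 4.3.3 by limma 3.58.1 (eBayes with an intensity trend), on the 4 libraries of a comparison, for autosomal genes with at least 0.1 FPKM in 2 libraries. P-values are two-sided, Benjamini-Hochberg adjusted over all genes tested; a call needed an adjusted p under 0.05 and a log2 difference of at least 1. Fold changes of low genes are understated on this scale. Group-by-Ckm fits used all 8 libraries. X, Y and mitochondrial genes were left out, since 3 libraries list all X and Y genes at 0. Ratios, exact permutation tests and correlations used SciPy, NumPy and pandas in Python. Scripts were tested on simulated data.

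Every member is reported. In the lists of IGF, cell cycle and imprint control genes, those past the threshold in either comparison are named. Otherwise the 3 with the largest difference among those averaging 1 FPKM or more are named. Neighbours on chromosome 7 may all be named, and 5 genes most like H19 and Cdkn1c. The cell type markers were read for cell content. Of these, limma called 3 of 9 brown adipocyte markers in the cold (Dio2, Ppargc1a and Elovl3, all higher). It called 1 of 5 white adipocyte markers under HFD (Lep, higher). Of all genes, 1.44% and 0.0684% were called. The members and lists were chosen with earlier results of these data known. The muscle marker Acta1 was not matched and not used here. The table has 0 sample columns that were left unused. The authors' count test with DESeq2 was not repeated, since counts were not used here. Alternatives covered the pseudocount, filters, scaling, the trend, all 8 libraries in a fit, library type, the X and Y genes, and each library left out.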

Additional observations from a re-analysis of the deposited data

How the results depend on the processing

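H19 kept its direction under all 15 alternatives in each comparison, but not its side of the threshold: limma called 1 member instead of 0, H19 each time, in the cold with median centring, rescaling to the autosomal sum without Ucp1 and rRNA genes, library type as a covariate, or X, Y and mitochondrial genes kept, and under HFD with library type as a covariate; leaving out each library gave 0 to 1 in both comparisons. Its adjusted p lay between 1.64e-06 and 0.587 in the cold, and between 8.93e-12 and 0.993 under HFD. With X, Y and mitochondrial genes kept, the H19 difference in the cold was unchanged at 2.88, and only the set of genes tested differed. X and Y genes are listed at 0 on 1 side of that comparison only, so this call is no further support for H19. Beside Ckm, the H19 difference under HFD was 0.0080 with a pseudocount of 0.1 and from -0.90 to 1.40 with each library left out. In the cold, the H19 difference beside Ckm was 0.12 to 1.18. The difference in the H19 to Ckm ratio in the cold was 0.17 with the geometric mean of the muscle markers in place of Ckm. The cause was not tested.

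The count of all genes called was unstable. In the cold it was 252, against 475 with a pseudocount of 0.1, 0 with no filter, 529 with 1 FPKM in 2 libraries, 489 with quantile normalization, 757 with median centring, 533 with rescaling, 0 with no trend, 439 with all 8 libraries, 859 with library type, 920 with X and Y genes kept, and 1 (without 4 °C replicate 2) to 766 with each library left out. Under HFD it was 12, against 0 with no filter, 24 with 1 FPKM, 0 with quantile normalization, 45 with median centring, 0 with rescaling, 0 with no trend, 75 with all 8 libraries, 744 with library type, 0 with X and Y genes kept, and 99 to 727 with each library left out. Higher calls were 213 of 252 in the cold, but 493 of 757 with median centring and 312 of 489 with quantile normalization; under HFD 9 of 12 and 23 of 45. The 920 calls in the cold with X and Y genes kept came from 17969 genes tested, against 17470 in the main fit. X and Y genes are listed at 0 on 1 side of that comparison only, so the 920 is not a measure of the cold. Median centring moved the median difference of genes averaging 1 FPKM or more from 0.21 to -0.05 for the cold, and from 0.29 to -0.06 for HFD.

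Members with small differences, and Cdkn1a under HFD, changed sign, with no call at either sign. In the cold, quantile normalization gave -0.31 (Igf2r) and -0.48 (Cd81), median centring -0.22 (Igf2r), -0.19 (Kcnq1ot1) and -0.24 (Cd81), rescaling -0.36 (Igf2r), -0.092 (Kcnq1ot1) and -0.40 (Cd81), and the Ckm covariate -0.13 (Igf2r), 0.084 (Ctcf) and 0.14 (Kcnq1). Under HFD, quantile normalization gave -0.078 (Ctcf) and -0.042 (Kcnq1ot1), median centring -0.022 (Igf2r), -0.085 (Ctcf), -0.054 (Kcnq1) and -0.26 (Kcnq1ot1), and the Ckm covariate 0.12 (Igf2). With each library left out, values in the cold ranged from -0.28 to 0.35 (Igf2r), -0.031 to 0.027 (Kcnq1), -0.0036 to 0.13 (Kcnq1ot1) and -0.15 to 0.19 (Cd81), and under HFD from -0.11 to 0.036 (Igf2) and down to -0.019 (Kcnq1ot1, without CD replicate 6), and from -0.24 to 2.06 for Cdkn1a, the lowest without HFD replicate 6. Cdkn1c kept its direction in all 15 alternatives of each comparison, with 0.14 to 0.59 and 0.48 to 0.96. No paired analysis was possible because 22 °C and 4 °C share no replicate number and CD and HFD share only 6; the fit with library type as a covariate blocks by the Gm10800 level of the library (1 high and 1 low in each group), which is not a pairing given by the labels.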
